A study of Mus musculus with 4 samples.

Results

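The E2f family of transcription factors was followed through ribosome profiling of FGSCs, female germline stem cells kept as a mouse cell line from the ovary. The members were taken by gene symbol, from E2f1 to E2f8, and all 8 were present among the 30694 genes with a translation efficiency entry. Translation efficiency (TE) is the normalized footprint value of a gene divided by its normalized RNA value, so it has no unit and an unchanged ratio says nothing of the RNA level. The study sequenced the RNA separately, so a TE named here for a library draws on a footprint library and an RNA library. A second table held the footprints of 4669 open reading frames (ORFs), of which 1 belonged to a member, E2f4. E2f7 is named in the study for its TE after knockdown, so the contrast was known when the family was chosen. Its values are therefore given as a description, with no p-value for any member.

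The libraries form a pair of groups. The shNC group (2 libraries) carried a lentiviral control hairpin, and the shGm26917 group (2 libraries) a lentiviral hairpin against the long noncoding RNA Gm26917. Per the methods, infected cells were kept by drug selection, and all cells received cycloheximide, which holds ribosomes on the mRNA, before lysis. The question was which genes lose or gain ribosomes per mRNA when Gm26917 is depleted. The study calls the replicates biological, and it lists several hairpin sequences against Gm26917. Which of them these cells carried, and how many infections or animals lie behind the cells, is not given in the sources used here.

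E2f proteins bind DNA at a common GC-rich element and set the timing of S phase entry. E2f1, E2f2 and E2f3 are the classical activators, which drive genes for DNA replication once cyclin-dependent kinases release them from the retinoblastoma protein. E2f4 and E2f5 act mainly as repressors together with pocket proteins, and E2f6 represses without pocket proteins, through Polycomb-type complexes. E2f7 and E2f8 are the atypical members. They carry a pair of DNA-binding domains, need no DP partner, and repress E2f target genes late in S phase, the gene of E2f1 among them.

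The libraries were not alike. In shGm26917 replicate 1, 372 of the 4669 ORFs (7.97%) had a value above 0, against 3421 to 4250 in the other 3 libraries, and its reads in ORFs came to 157914 against 1049143 to 1753036. A TE above 0 was given for 10687 genes in that library and for 13739 to 14720 in the others. Between libraries, the correlation of log2 TE across genes was r = 0.77 to 0.78 for pairs that include shGm26917 replicate 1 and 0.92 to 0.94 for the other 3 pairs. Genes are not independent replicates, so these r values only describe the libraries. The depth behind each TE is unknown. Gm26917 itself had TE values of 17.0 and 23.8 in the controls and 113 and 8.62 after knockdown, and since a ratio does not measure an RNA level the knockdown was not checked here. Of 9 germline markers listed, 7 were in the TE table, and 4 of these (Ddx4, Pou5f1, Stra8 and Sycp3) were at 0 or blank in all 4 libraries. The study reports the meiotic markers Stra8 and Sycp3 as undetectable in undifferentiated FGSCs. Ddx4 and Pou5f1 (Oct4), in contrast, are markers by which the study characterized its FGSCs, with RT-PCR and immunofluorescence. Their lack of a TE here thus stands apart from that evidence, which used other measures, and the difference was not tested. Kit and Ifitm3 had a TE above 0 in all 4 libraries, and Prdm1 in both shNC libraries only. Of 5 stromal markers listed, 4 were in the TE table, the collagen genes Col1a1 and Col1a2 included, and each had a TE above 0 in all 4 libraries. So did 4 of 6 macrophage markers and 1 of the 4 granulosa cell markers in the table, but none of the 3 endothelial and 4 epithelial markers. The endothelial markers were above 0 in every library but shGm26917 replicate 1. A TE shows that an mRNA was present, not how abundant it was. The log2 changes below are given without shGm26917 replicate 1 as well where that library decides their size or sign.

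Several members carry the E2f element in their own promoter, and the stretches that hold it are shown here because family members act on one another's genes. RefSeq promoter windows (GRCm38.p6, 250 bases before to 50 bases after the start) were found for 6 members, all but E2f4 and E2f5. The element was searched on both strands as TTTCCCGC, TTTCGCGC, TTTGCCGC or TTTGGCGC. Each stretch below is 60 bases long, lies wholly before the start site and is written 5′ to 3′ in the direction of the gene, with the match in capitals.
E2f7 (chr10:110745215-110745274, plus strand): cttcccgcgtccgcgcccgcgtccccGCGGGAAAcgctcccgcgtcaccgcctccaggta
E2f3 (chr13:29986064-29986123, minus strand): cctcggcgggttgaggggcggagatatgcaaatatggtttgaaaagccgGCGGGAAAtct
Both matches read GCGGGAAA, the reverse complement of TTTCCCGC. In E2f7 the match begins 198 bases before the start and in E2f3 11 bases before it. E2f2 held a match 40 bases after its RefSeq start. That window (136172024 to 136172323) ends before the gene as deposited begins, at 136172394, so the match lies before the deposited start. E2f2 and E2f3 each had a further window without a match. The windows of E2f1, E2f6 and E2f8 held none of these letters, which says only that this spelling is not in that window. The E2f1 window (154569377 to 154569676) lies inside the gene as deposited, so the deposited start of E2f1 was not searched. Of all 27025 genes with a window, 704 (2.61%) held a match, and of the protein-coding genes with a TE entry 3.91% did. A match is a description and not a binding site, and promoter letters bear on transcription, which was not analysed here.

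Among the activators, E2f1 was translated at a higher efficiency in both knockdown libraries than in either control. Its gene lies on chromosome 2 (154559407 to 154569892, minus strand; coordinates as deposited, mm10). The TE of E2f1 was 0.769 and 0.961 in shNC replicates 1 and 2 and 1.11 and 1.13 in shGm26917 replicates 1 and 2. The groups did not overlap, and the gap between them (0.21 on the log2 scale) was smaller than the distance between the 2 shNC libraries, which stood 1.25-fold apart. The log2 change was 0.38 ± 0.32 (SE, n = 2 per group), with 0.22 without shNC replicate 1, 0.54 without shNC replicate 2 and 0.37 to 0.39 without either knockdown library. The cells were lysed in bulk, so for this and every gene below a shift in the mix of cells and a shift within each cell cannot be told apart.

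E2f2, an activator known from the control of blood cell division (chromosome 4, 136172394 to 136196057), had TE values of 0.876 and 0.512 in the controls, was listed at 0 in shGm26917 replicate 1 and had 0.421 in shGm26917 replicate 2. Both knockdown values were below both controls. Of the genes above 0 in the other 3 libraries, 18.1% were listed at 0 in shGm26917 replicate 1, and for protein-coding genes with a mean shNC TE between 0.2 and 1 the share was 14.9%. With that library left out, the log2 change of E2f2 was -0.67 ± 0.47 (SE, 1 against 2 libraries), and no fold is given against the 0.

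E2f3, whose locus encodes an activating and a repressing isoform (chromosome 13, 29906575 to 29986063, minus strand), had 0.485 and 0.481 in shNC and 0.333 and 0.537 in shGm26917. The control libraries stood 1.01-fold apart, the closest pair of controls in the family, and the knockdown libraries fell on either side of them. The log2 change of -0.19 ± 0.38 (SE) was -0.54 without shGm26917 replicate 2 and turned to 0.15 without shGm26917 replicate 1. E2f3 thus had no settled direction, and its isoforms cannot be told apart in a gene-level ratio.

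The repressors that work with pocket proteins diverged between the knockdown libraries. E2f4, the most abundant E2f of many resting cells (chromosome 8, 105297663 to 105305370), had TE values of 0.526 and 0.552 in shNC against 0.254 and 0.599 in shGm26917. The first knockdown library was below both controls and the second above both. The log2 change was -0.47 ± 0.51 (SE), -1.09 without shGm26917 replicate 2 and 0.15 without shGm26917 replicate 1.

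E2f5, which is required in mice for normal fluid balance in the choroid plexus (chromosome 3, 14578641 to 14606309), was the most variable member above 0 in every library. Its TE was 0.433 and 0.179 in shNC against 0.886 and 0.341 in shGm26917, a 4.95-fold span over the 4 libraries. The 2 controls alone stood 2.42-fold apart, and the groups overlapped. Its log2 change of 0.98 ± 0.69 (SE) had the largest SE of the 6 members fitted. It was 0.29 without shGm26917 replicate 1 and 0.35 without shNC replicate 2, and 1.67 without shGm26917 replicate 2 and 1.62 without shNC replicate 1.

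E2f6, the Polycomb-associated repressor (chromosome 12, 16810963 to 16839742), had the narrowest span of the family. Its TE was 0.476 and 0.398 in shNC against 0.522 and 0.515 in shGm26917, a 1.31-fold span. Both knockdown values lay above both controls by a gap of 0.11 on the log2 scale. The log2 change was 0.25 ± 0.32 (SE), and it stayed between 0.12 and 0.38 when any 1 library was left out.

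The atypical repressor E2f7 was translated at a 2.03-fold lower efficiency in the knockdown libraries. Its controls stood 1.21-fold apart and its knockdown libraries 1.07-fold. Its gene spans 110745439 to 110787384 on the plus strand of chromosome 10. E2f7 had TE values of 1.25 and 1.03 in shNC against 0.576 and 0.540 in shGm26917 replicates 1 and 2. The group means were 1.14 ± 0.154 and 0.558 ± 0.0250 (SD, n = 2 each), and the log2 change was -1.02 ± 0.32 (SE). The lower control exceeded the higher knockdown value by 0.84 on the log2 scale, the widest gap among the members whose groups were apart. The log2 change lay between -1.16 and -0.88 when any 1 library was left out, so it did not rest on the library with few ORFs.

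E2f8, the other atypical repressor (chromosome 7, 48866429 to 48881596, minus strand), was at the low end of the family from the start. Its TE was 0.233 and 0.378 in shNC, it was listed at 0 in shGm26917 replicate 1, and it had 0.176 in shGm26917 replicate 2. Both knockdown values were below both controls. Without shGm26917 replicate 1 the log2 change was -0.75 ± 0.44 (SE, 1 against 2 libraries), so the direction of E2f8 rests on 1 knockdown library and on an entry of 0.

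**Figure D1:**
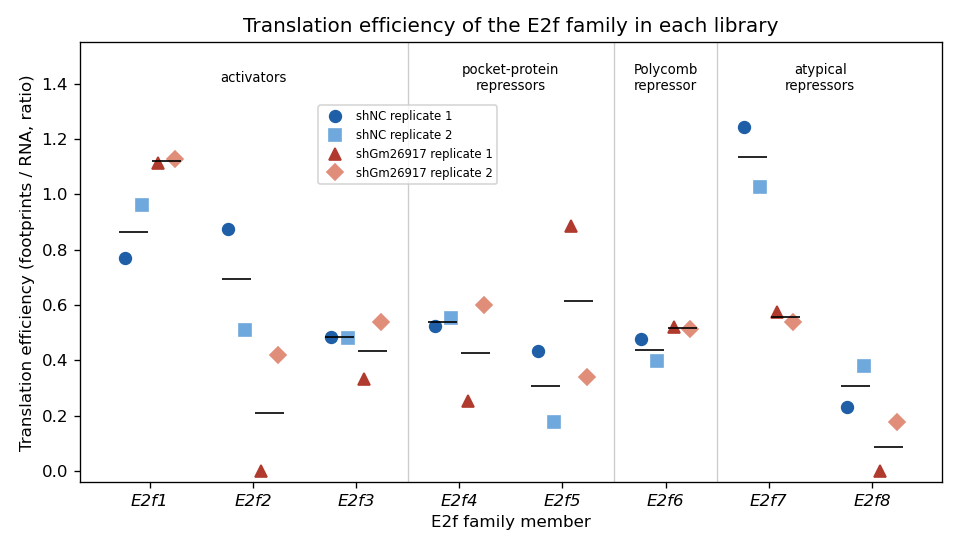
TE (footprints over RNA, a ratio without unit, linear axis) of the 8 E2f members in each of the 4 libraries, grouped by role; short black lines are the means of the 2 libraries of a group. E2f7 stands at 1.25 and 1.03 in shNC and at 0.576 and 0.540 in shGm26917, E2f1 at 1.11 and 1.13 in shGm26917, and E2f2 and E2f8 are listed at 0 in shGm26917 replicate 1.

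Set side by side, the atypical repressor E2f7 and the activator E2f1 changed places. In both shNC libraries E2f7 had the highest TE of the family, and in both shGm26917 libraries E2f1 did, with E2f7 in place 3. The ratio of E2f7 to E2f1 was 1.62 and 1.07 in shNC and 0.517 and 0.479 in shGm26917. In shNC replicate 2 the 2 genes differed by less than the spread of either one between the controls, so their order there is not resolved. Against E2f3 the ratio was 2.57 and 2.13 in shNC and 1.73 and 1.01 in shGm26917, so E2f7 stood at the level of E2f3 in shGm26917 replicate 2.

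Taking the mean log2 TE of E2f1 and E2f3 as the reference (E2f2 is at 0 in 1 library), E2f7 stood 1.03 and 0.60 above it in shNC replicates 1 and 2, and at -0.08 and -0.53 in shGm26917. The group difference of that value was -1.11, and it was -1.40 against E2f1 alone and -0.83 against E2f3 alone. The activator left out, E2f2, was lower in both knockdown libraries, as E2f7 was. Without shGm26917 replicate 1 its log2 change was -0.67, beside -1.07 for E2f7, so the value does not hold for the activators as a group. The 2 atypical members did not hold a fixed ratio to each other, since E2f7 over E2f8 was 5.34 and 2.71 in shNC and 3.07 in shGm26917 replicate 2. E2f7 and E2f8 can form a heterodimer, and TE of the mRNAs does not measure either protein.

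Most of the family lay in the lower part of the TE range. The median TE of protein-coding genes above 0 was between 0.963 and 1.00 in the 4 libraries, and 1 member exceeded it in each library, E2f7 in both controls and E2f1 in both knockdown libraries. Among those genes E2f7 stood at percentiles 61.5 and 52.4 in shNC and at 29.4 and 27.1 in shGm26917. E2f1 stood at percentiles 39.7 and 49.6 in shNC and at 54.2 and 57.5 in shGm26917. E2f3 and E2f6 stayed between percentiles 15.1 and 26.9 in every library. In the shNC libraries the order below E2f7 was not resolved. E2f2 was above E2f1 in shNC replicate 1 and below it in shNC replicate 2, E2f2 itself stood 1.71-fold apart between the controls, and E2f5 and E2f8 exchanged the last place.

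Across the family, both knockdown libraries were below both controls for 3 members (E2f2, E2f7 and E2f8) and above both for 2 (E2f1 and E2f6), and the groups overlapped for the other 3. Of all 12668 genes above 0 in both shNC libraries, 20.3% had both knockdown libraries below and 12.8% had both above. In shGm26917 replicate 1 alone, 5 of 8 members were below both controls and 3 above both, against 53.8% and 34.6% of all genes. In shGm26917 replicate 2 alone, 3 were below and 4 above, against 35.0% and 34.1%. These shares were part of the contrast that led to the choice of the family, and nothing is read from them.

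Of the 8 members, 6 had a TE above 0 in all 4 libraries and entered the fit over 10115 genes. Their median log2 change was 0.03, with 3 above and 3 below 0, against a median of 0.00 over all genes tested. With limma and Benjamini-Hochberg adjustment, 0 of 10115 genes were called at an adjusted p under 0.05 (0% of those tested, no member among them). Before adjustment 237 lay under 0.05, a smaller share than the 0.05 to be met with no change in any gene. At the threshold of the study, which takes a 1.5-fold change and an unadjusted limit of 0.05, 89 genes were lower (0.880%) and 148 higher (1.46%). The count and its balance rest on the libraries used, since 718 genes stood at that threshold without shGm26917 replicate 1 (241 higher and 477 lower), 3362 without shGm26917 replicate 2 (1612 higher and 1750 lower), and 127 and 89 without shNC replicates 1 and 2. The p-values measure only the spread between these 4 libraries.

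**Figure D2:**
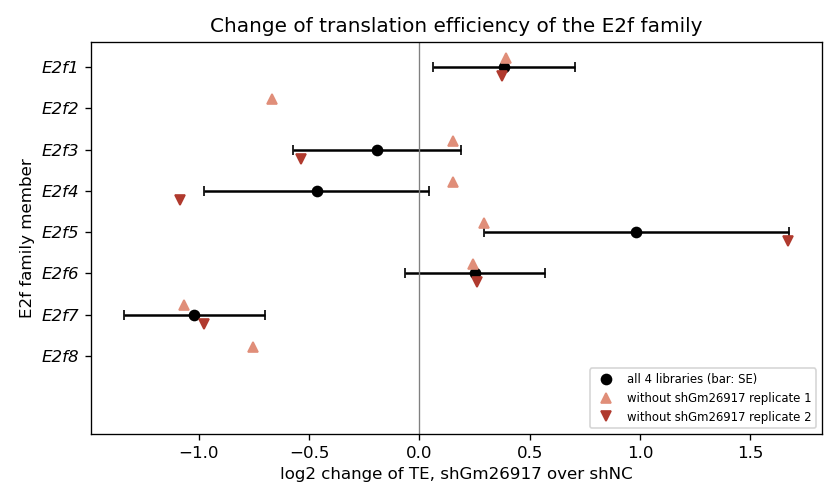
Log2 change of TE (shGm26917 over shNC) of the E2f members; black points are the fit over all 4 libraries with bars of 1 SE, and triangles the same change without 1 knockdown library. E2f7 lies between -1.07 and -0.97 in the 3 fits, E2f3 and E2f4 are on either side of 0 depending on the library, and E2f2 and E2f8, listed at 0 in shGm26917 replicate 1, have a value only without it.

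Footprints on a single reading frame were available for E2f4 alone. Its annotated ORF runs from 105297741 to 105304688 on chromosome 8 and has 410 codons by its identifier. Its size-adjusted values were 127 and 133 in shNC, 0 in shGm26917 replicate 1 and 175 in shGm26917 replicate 2. The values above 0 correspond to 161 reads (95% exact Poisson interval 137 to 188) and 114 reads (94.0 to 137) in shNC, and 232 reads (203 to 264) in shGm26917 replicate 2. These intervals cover counting error only. The ORFs of Cdkn1b and Cdc20 were also at 0 in shGm26917 replicate 1, beside 1575 and 2545 reads in shGm26917 replicate 2. A 0 there may be an ORF that was not listed for the library, so it is given no interval. The E2f4 ORF was thus listed at 0 in the library in which the gene still had a TE of 0.254, and 4297 of the 4669 ORFs were at 0 there.

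Per 100 codons, the E2f4 ORF had 31.0, 32.4 and 42.8 in the 3 libraries that list it, at percentiles 55.0, 50.2 and 62.9 of annotated ORFs above 0. In these 3 libraries E2f4 was thus an ORF of middling footprint density, with the highest value in shGm26917 replicate 2. With limma, 0 of 4669 ORFs were called (0%), with 346 under 0.05 before adjustment, while edgeR on the recovered reads called 0 of 3927, with 4 under 0.05 before adjustment. Without shGm26917 replicate 2, the knockdown group is left with the library in which 4297 of the 4669 ORFs were at 0. Calls in that fit thus set entries of 0 against the controls for most ORFs, and nothing is read from them.

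The genes whose TE followed E2f7 most closely were found among 9672 protein-coding genes, by the Euclidean distance of log2 TE over the 4 libraries after each gene was centred on its mean. The nearest were Atg4d, a protease of autophagy (distance 0.23), Slc25a10, the mitochondrial dicarboxylate carrier (0.25), Tfap2a, a transcription factor of neural crest and ectoderm (0.27), Mical3, an actin-associated oxidoreductase (0.28), and Mmp16, a membrane-bound matrix metalloproteinase (0.28). Slc25a10, for example, had TE values of 1.25 and 1.15 in shNC against 0.636 and 0.487 in shGm26917, a level near that of E2f7 in each library. With 4 libraries, such a match only says that the values are alike.

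The DP proteins, which dimerise with E2f1 to E2f6 for DNA binding, had low TE and no called change. Tfdp1 had TE values of 0.226 and 0.189 in shNC against 0.127 and 0.260 in shGm26917 (limma adjusted p = 0.977). Tfdp2 had 0.368 and 0.186 against 0.240 and 0.190 (adjusted p = 0.966). In both genes the groups overlapped, and the log2 changes of -0.18 ± 0.46 and -0.29 ± 0.46 (SE) were smaller than their errors. Without shGm26917 replicate 1 they were 0.33 for Tfdp1, a change of sign, and -0.46 for Tfdp2, which in turn went to 0.20 without shNC replicate 1.

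The pocket proteins, which hold E2f factors in check, showed no common pattern, and none of the 3 passed the test (limma adjusted p = 0.966 to 0.987). Rb1, the retinoblastoma protein that binds the activators, had TE values of 0.317 and 0.323 in shNC against 0.6004 and 0.323 in shGm26917. Rbl1 (p107), which binds E2f4 and E2f5, had 0.961 and 0.862 against 0.542 and 0.958. Rbl2 (p130), its relative in resting cells, had 0.381 and 0.414 against 0.435 and 0.392. For Rb1 and Rbl1 the distance from the controls came from shGm26917 replicate 1, while shGm26917 replicate 2 lay at the control level, and the log2 changes of 0.46 ± 0.42 and -0.34 ± 0.41 (SE) went to 0.01 and 0.07 without the former.

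Around E2f4, pocket proteins and the MuvB core form the DREAM complex, which silences cell cycle genes in resting cells. Of its 7 listed subunits and partners 6 were tested, 3 with a log2 change above 0 and 3 below, and 0 were called. At the study's threshold 1 stood lower, Lin9, though not with quantile normalization or with replicate number as a block. Lin9, a core subunit, had TE values of 0.619 and 0.437 in shNC against 0.202 and 0.290 in shGm26917, and a log2 change of -1.10 ± 0.39 (SE; limma adjusted p = 0.966), which was -0.84 without shGm26917 replicate 1. Lin37 had a log2 change of -0.18 that turned to 0.29 without that library, Rbbp4 one of 0.13 that went to 0.42, and Foxm1 one of 0.14 that turned to -0.27 without shNC replicate 2. The list's median was -0.02, and 0.14 without shGm26917 replicate 1.

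The partners of E2f6 had a median log2 change of -0.24 over 13 of 14 genes tested, with 4 above 0, 9 below and 0 called. The median turned to 0.07 without shGm26917 replicate 1. At the study's threshold 1 of these genes stood higher, Hdac1, and 0 lower. Hdac1, a histone deacetylase, had a TE of 0.0432 and 0.0561 in the controls and 0.346 and 0.103 after knockdown. Its log2 change was 1.94 ± 0.67 (SE; limma adjusted p = 0.966). Its 2 knockdown libraries lay 3.37-fold apart, and the change was 1.06 without shGm26917 replicate 1 (limma adjusted p = 0.853) and 2.81 without shGm26917 replicate 2, where it was called (limma adjusted p = 0.0491). L3mbtl2 and Pcgf6, subunits of the E2f6 complex, had -0.63 ± 0.46 and -0.76 ± 0.65, and the deacetylase Hdac2 0.38 ± 0.32 (SE; adjusted p = 0.966 each). In shGm26917 replicate 2 both L3mbtl2 and Pcgf6 lay inside the control range, and without shGm26917 replicate 1 their log2 changes were -0.19 and 0.07, with 0.32 for Hdac2.

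Upstream of the family, the G1 cyclins, their kinases and the kinase inhibitors had 14 of 15 genes tested, 4 above 0, 10 below and 0 called (median -0.20, and -0.11 without shGm26917 replicate 1). Ccne1, cyclin E1, had TE values of 1.25 and 0.739 in shNC against 1.35 and 2.46 in shGm26917 (log2 change 0.92 ± 0.49, SE; limma adjusted p = 0.966), with a change of 0.54 if shNC replicate 2 is left out and of 0.49 if shGm26917 replicate 2 is. The inhibitors Cdkn2a, Cdkn2b and Cdkn2d had log2 changes of -0.77 ± 0.48, -0.49 ± 0.42 and -0.36 ± 0.35 (SE; adjusted p = 0.966 each), and of -0.20, -0.84 and -0.23 without shGm26917 replicate 1. Cdkn2a, with the reading frames of p16 and p19Arf on 1 locus, had TE values of 16.1 and 14.7 in shNC against 6.13 and 13.4 in shGm26917, again with the lower value in shGm26917 replicate 1. Of the 9 genes that act in the breakdown of E2f proteins and their regulators 8 were tested, 3 above 0, 5 below and 0 called (median -0.11, and -0.13 without that library). Cdc20 and Fzr1, the activators of the anaphase-promoting complex, had -0.46 ± 0.34 and 0.13 ± 0.36, its inhibitor Fbxo5 -0.53 ± 0.42, and the F-box protein Btrc -0.30 ± 0.49 (SE; adjusted p = 0.966 to 0.977). Without shGm26917 replicate 1 these log2 changes were -0.23 for Cdc20 and -0.09 for Fbxo5, and the sign turned for Fzr1 (-0.16) and Btrc (0.25).

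Downstream, the E2f target genes of G1/S are the replication and nucleotide genes that activators switch on and that E2f7 and E2f8 repress. TE was tested for 36 of 37, with 9 above 0, 27 below, 0 called and 0 at the study's threshold. Their median log2 change was -0.23, against 0.00 over all genes tested. Without shGm26917 replicate 1 the median was 0.08, with 23 above 0 and 14 below, so the direction of the list rests on that library. Rrm2, the small subunit of ribonucleotide reductase, had TE values of 1.32 and 1.497 in shNC against 0.821 and 1.07 in shGm26917 (log2 change -0.58 ± 0.34, SE; limma adjusted p = 0.966). Cdk1, the mitotic kinase, had 1.72 and 1.51 against 0.959 and 1.30. Cdc6, which loads the replicative helicase, had 1.10 and 1.497 against 0.106 and 1.20, so its log2 change of -1.85 ± 1.21 (SE; adjusted p = 0.966) came from shGm26917 replicate 1 and was -0.10 without it. With shGm26917 replicate 2 left out instead, Cdc6 was called (log2 change -3.60, limma adjusted p = 0.0450). For Rrm2 and Cdk1 the log2 changes without shGm26917 replicate 1 were -0.39 and -0.31.

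The E2f element searched for in the members was looked up in the promoters of these targets too. Of the 29 target genes with a RefSeq window 14 (48.3%) held a match, beside 3 of the 6 E2f members with a window and 2.61% of all genes. The list was written from genes known as E2f targets, so this share describes how the list was made.

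The last pair of lists covered other known roles of the family. Of the multiciliogenesis genes that act with E2f4 and E2f5, Ccno had TE values of 44.8 and 30.4 in shNC against 23.0 and 26.8 in shGm26917 (log2 change -0.57 ± 0.36, SE; limma adjusted p = 0.966), and Myb had -0.10 ± 0.39 (adjusted p = 0.980), which turned to 0.25 without shGm26917 replicate 1. Of the 9 listed apoptosis genes under E2f control, which include both death effectors and the survival gene Mcl1, 6 were tested, 3 above 0, 3 below and 0 called (median 0.00, and 0.15 without shGm26917 replicate 1). Bbc3, the death effector Puma, had 1.67 and 1.59 against 3.87 and 1.52, and Apaf1, the core of the apoptosome, had 0.635 and 0.679 against 0.693 and 0.478. Mcl1, a survival protein, and Bcl2l11, the death effector Bim, had 0.31 ± 0.47 and -0.20 ± 0.45 (SE; adjusted p = 0.966 and 0.974). Without shGm26917 replicate 1 the sign turned for both, to -0.22 for Mcl1 and 0.30 for Bcl2l11, and the log2 change of Bbc3 went from 0.57 to -0.10 and that of Apaf1 from -0.19 to -0.46.

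**Figure D3:**
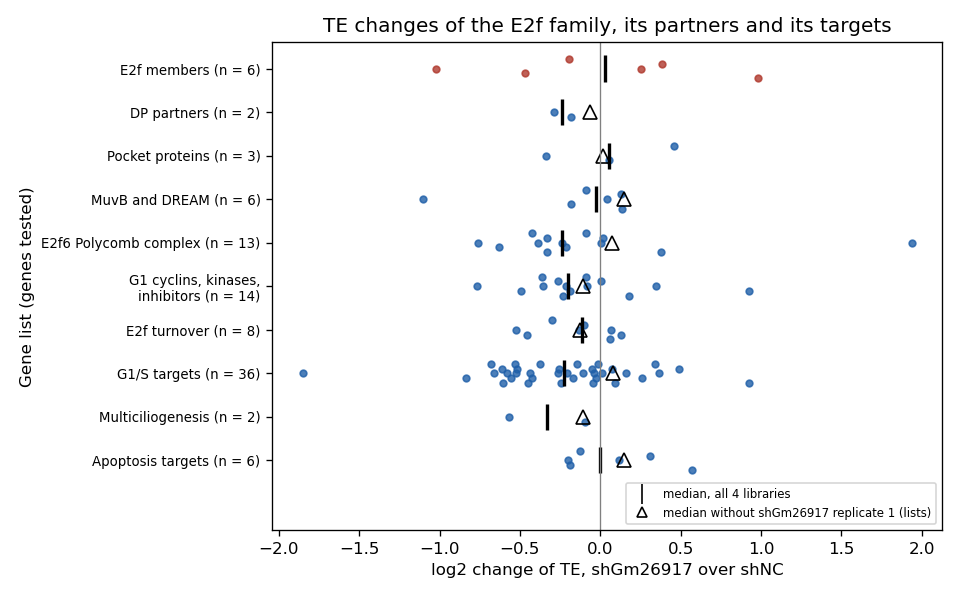
Log2 change of TE (shGm26917 over shNC) of each tested gene, for the E2f members (red) and for 9 lists of partners, regulators and targets (blue); the vertical scatter within a row has no meaning, bars are medians over all 4 libraries and open triangles the list medians without shGm26917 replicate 1. The G1/S targets have a median of -0.23 that moves to 0.08 without that library, and no gene shown was called in the fit over all 4 libraries.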

How the data were processed

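Per the labels, cycloheximide-treated cells were lysed, RNA outside ribosomes was removed with RNase I, and the protected fragments were sequenced. TE was deposited as a ratio per gene and library of normalized footprints to normalized RNA, and was left blank where the authors formed none. ORF signal was deposited as reads per ORF, for ORFs found with RiboCode, divided by a library size factor. All values above 0 were whole multiples of the smallest within 0.01 reads (100% in each library), so reads were recovered; low values alone could not be checked in shGm26917 replicate 1. Coordinates are those of build mm10, which the submitters' notes name, while the software for alignment and counting is not given in the sources used here. Deposited fold changes, p-values, adjusted p-values and classes hold the authors' comparison and were not used. Columns labelled KO in both tables were taken as shGm26917, following the sample titles and genotypes.

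TE was compared with limma 3.58.1 (lmFit, eBayes) in R 4.3.3 on log2(TE) without pseudocount, for genes above 0 in all 4 libraries. ORFs were compared on log2(value + 1) with a trend, for values over 1 in at least 2 libraries, and with edgeR 4.0.16 (quasi-likelihood, TMM, filterByExpr) on recovered reads, added after the values were seen. Adjustment was by Benjamini-Hochberg over all features, and calls were made at 0.05. The procedures were tested on simulated data in which all libraries had the same noise and depth, so no library like shGm26917 replicate 1 was covered. Members and lists were chosen with earlier results of these data known. Text names every member, DP partner and pocket protein, up to 4 genes per other list with the smallest p, and the 5 genes nearest to E2f7. Alternatives covered the pseudocount, scaling, filters, the replicate block and each library left out.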

Additional observations from a re-analysis of the deposited data

How the results depend on the processing

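With 2 libraries per group, 1 of them with few listed ORFs, a single library decided several values. When each library was left out in turn, the genes called for TE ranged from 0 to 247 and those at the study's threshold from 89 to 3362, and the ORFs called from 0 to 1982, the highest count each time without shGm26917 replicate 2. The lone library of a group was then assumed to vary like the other group. The median log2 change ranged from -0.22 to 0.14 for the MuvB and DREAM genes, from -0.28 to -0.13 for the turnover genes and from -0.085 to 0.15 for the apoptosis targets, and with quantile normalization it was 0.13 for the apoptosis targets. E2f7 relative to the mean of E2f1 and E2f3 ranged from -1.34 to -0.89. E2f7, E2f1, E2f5 and E2f6 kept their direction under every alternative run, and E2f3 and E2f4 changed sign without shGm26917 replicate 1.

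Libraries with the same number share only that number. Their deviations from the group means correlated at -0.04, and with the replicate block 0 genes were called, 274 stood at the study's threshold, and the log2 change of E2f7 was -1.02 with an SE of 0.41. An alternative pseudocount for the TE and ORF values, scaling to 1 median and the filters on low values left the count of calls at 0. The depth behind a TE is unknown, so a TE of 0 may be a failed estimate.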
